A study of Mus musculus with 10 samples.

Results

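The genes described here encode the SNARE proteins, their partners and the vesicle and active zone proteins with which neurons release transmitter. They are 43 genes, taken by name from the 56691 genes of the deposited count table, and all 43 were found there. The ventral tegmental area, a midbrain region rich in dopaminergic neurons, came from male C57BL/6 mice. There were 5 libraries after 30 min of acute restraint, a short stressor in which the animal cannot move, and 5 libraries from mice without restraint, called controls. The labels give all 10 libraries the genotype WT, and all hold ribosome-bound RNA, which was enriched for dopaminergic neurons by way of a construct that the labels call NBL10-HA. What drives the construct, the age of the mice and whether animals were pooled are not given in the sources used here. Nothing says that the 5 libraries of a group came from separate animals, so the tests measure the spread between libraries, which may be technical in part.

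In a nerve terminal, a SNARE protein of the vesicle zips together with SNARE proteins of the plasma membrane and so pulls the membranes into fusion. Munc13 proteins prime the vesicle, complexins hold and assist the zipped bundle, and synaptotagmins trigger fusion when calcium enters at the active zone, a scaffold of RIM, bassoon, piccolo and ERC proteins. After fusion, the ATPase NSF takes the SNARE bundle apart, and dynamin, endophilin, amphiphysin and synaptojanin retrieve the membrane. In the mouse, dopamine axons are known to use synaptotagmin-1, RIM and Munc13 for fast release.

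Totals ran from 56082358 to 86584968 reads in restraint libraries and from 58326489 to 74851305 in controls, and the smallest count of any of the 43 genes in a library was 165. Levels are given as counts scaled to a common library size with the trimmed mean of M values (CPM). The RNA was not of dopaminergic neurons alone. Th, which encodes tyrosine hydroxylase of the dopamine pathway, had 405 to 583 CPM after restraint and 307 to 490.5 CPM in controls, while Gad1, a marker of GABA neurons, had 447 to 666 and 428 to 614 CPM, and the astrocyte gene Gfap 2125 to 2799.6 and 1769.7 to 2077 CPM. Slc17a6, the vesicular glutamate transporter gene of the midbrain, had 332 to 471 CPM after restraint and 381 to 419 CPM in controls. All of these neuron types use the release machinery, so its levels here are not assigned to a cell type, and fewer cells of a type cannot be told apart from less RNA per cell. Over all genes tested, restraint 1 lay far from the rest along the first principal component (score -92.1, against -4.08 to 19.2 in the other 9), and several values are also given without it.

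No gene of the release machinery passed the test between restraint and control. With edgeR's quasi-likelihood test and Benjamini-Hochberg adjustment over the 18440 genes tested, 0 of the 43 had an adjusted p under 0.05 (range 0.216 to 0.991), where 4 of all genes tested, or 0.0217%, did. DESeq2 and limma-voom also called 0 of the 43, where DESeq2 called 1.8% and limma-voom 0.0217% of all genes tested. The 43 genes all passed the filter on low counts. Of them, 20 had a fold change above 1 and 23 below, with a median log2 fold change of -0.02, against -0.00 over all genes tested. At an unadjusted p under 0.05 there were 8 of the 43, 4 higher (background 5.64%) and 4 lower (background 6.04%), or 18.6%, where 11.7% of all genes tested reached it. Among genes with a mean of at least 50 CPM, a bound chosen after the values were seen, 4 of 37 members (10.8%) and 18.2% of all genes reached it.

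Standard errors of the log2 fold change ran from 0.07 to 0.2, with a median of 0.1. The 95% intervals spanned 0 for 35 of the 43 genes. The lowest bound of any gene was -0.71, for Unc13b, and the highest 0.62, for Syn3, which are the genes with the fewest reads. Snap25, the most abundant by CPM, had an interval of -0.09 to 0.32, and Syt11 one of -0.16 to 0.15.

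**Figure D1:**
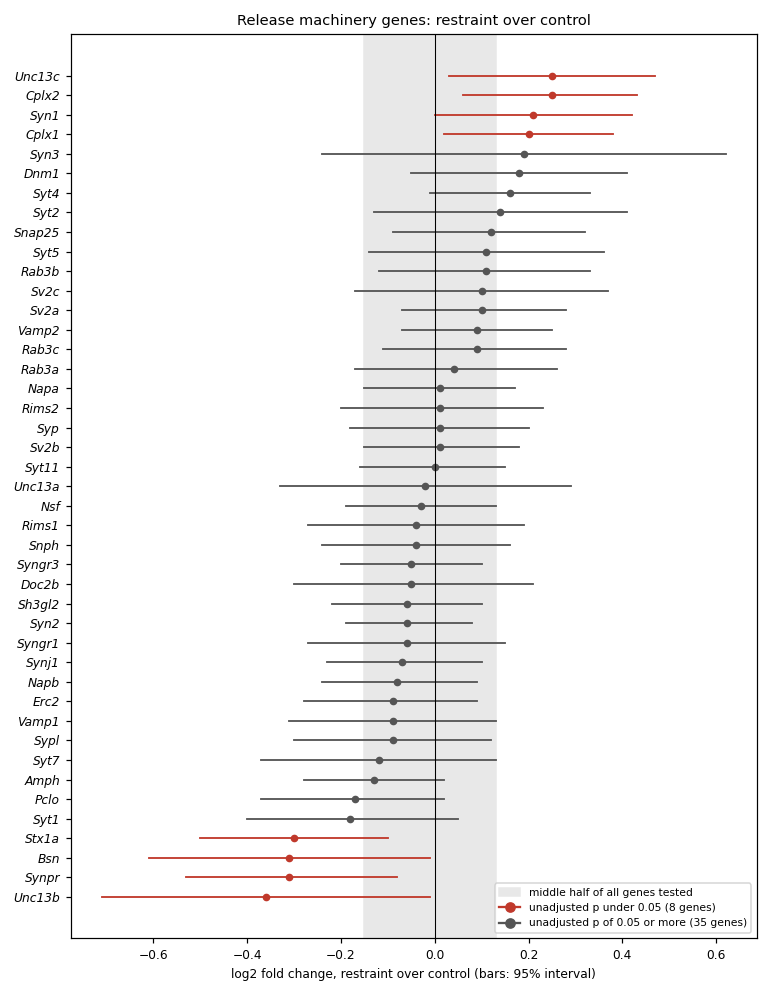
Log2 fold change of each of the 43 genes, restraint over control, with its 95% interval from edgeR. Grey shading spans the interquartile range of all genes tested (-0.15 to 0.13), and the 8 genes drawn in red, Unc13c, Cplx2, Syn1 and Cplx1 above 0 and Stx1a, Bsn, Synpr and Unc13b below, have an unadjusted p under 0.05.

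Levels differed far more between members than between groups. To compare genes, CPM was divided by the exon length that the table gives, which counts every annotated exon base of a gene and so understates genes with long alternative exons. In controls this level ran from 0.283 CPM per kilobase for Syn3 to 606 CPM per kilobase for Cplx1. Cplx1 stood above all other members (561 to 648 CPM per kilobase in the 5 controls). Snap25, Rab3a and Vamp2 followed at 478 ± 41.7, 475 ± 51.8 and 426 ± 25.3 CPM per kilobase in controls (SD, n = 5), and each of these overlapped its neighbour in the order. Syt11 came next at 206 ± 6.36, below the lowest Vamp2 library. In only 8 of the 42 neighbouring pairs in the order were the control ranges separate. Of the 43 genes, 25 lay above 90% of all genes tested in level per length, while Unc13b (20.2%) and Syn3 (18.3%) lay above a smaller share.

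**Figure D2:**
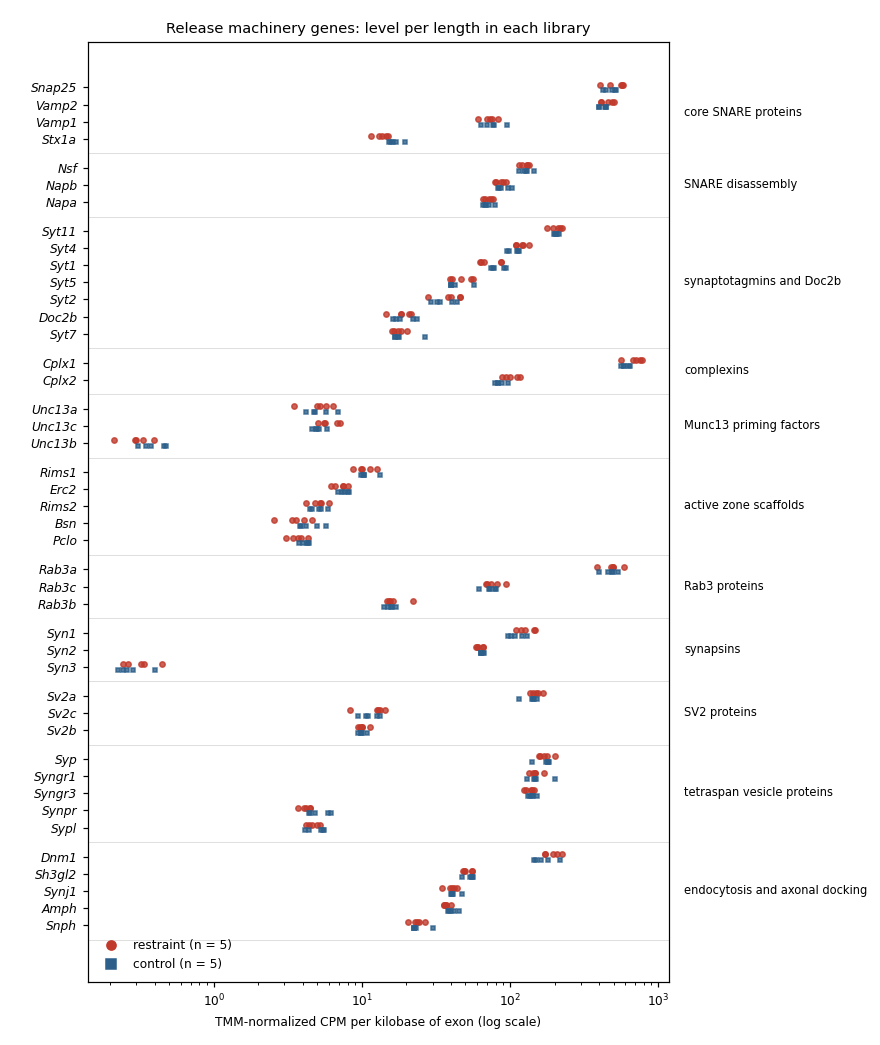
Level of each gene in each library, as CPM per kilobase of exon on a log scale, with genes grouped by role and ordered within a role by the control mean (circles restraint, squares control, n = 5 each). The groups overlap at every gene but Stx1a, while the genes span from Syn3 near 0.283 to Cplx1 near 606 in control means.

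Among the core SNARE genes, the plasma membrane pair Snap25 and Stx1a had very different levels. Snap25, which encodes the SNARE that gives the bundle 2 of its helices, had 2738, 3909, 3865, 3829 and 3233 CPM in restraint 1 to 5, against 2893, 3291, 3554, 3465 and 3019.8 CPM in control 1 to 5. The groups overlapped, and restraint 1 was the lowest library of all (log2 0.12 ± 0.10 SE, adjusted p = 0.707). Without restraint 1 the value was 0.20. Vamp2, the vesicle SNARE synaptobrevin, averaged 1732 ± 164 CPM in restraint libraries and 1623 ± 96.5 CPM in control libraries, with SD over 5 each, and its paralogue Vamp1 had 737 ± 82.1 and 783 ± 123 CPM.

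Stx1a, the gene of the syntaxin that anchors the bundle in the plasma membrane (chromosome 5, 135052336 to 135079954, GRCm39), had the smallest p of the 43. It had 34.9, 30.7, 36.7, 40.0 and 38.7 CPM in restraint 1 to 5, against 40.7, 45.0, 42.1, 43.0 and 52.4 CPM in control 1 to 5. Every restraint library lay below every control library, by as little as 40.0 in restraint 4 against 40.7 in control 1. It was the 1 member of 43 whose groups did not overlap, or 2.33%, where 2.61% of all genes tested had groups that did not (1.25% higher and 1.36% lower after restraint). The log2 fold change was -0.30 ± 0.09 (SE; 95% interval -0.50 to -0.10; unadjusted p = 0.00578, adjusted p = 0.216 with edgeR), so the difference did not pass. Leaving out any library gave -0.33 to -0.24.

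The genes that take the SNARE bundle apart had fold changes close to 1. Nsf, the ATPase, had 965, 1005, 1095, 1122 and 1083 CPM in restraint 1 to 5, against 965, 1204, 1072, 1043 and 1095 CPM in control 1 to 5. The groups overlapped throughout, with the highest value in control 2 (log2 -0.03 ± 0.07, 95% interval -0.19 to 0.13). Napa and Napb, which encode the alpha- and beta-SNAP adaptors that recruit NSF, had log2 fold changes of 0.01 ± 0.07 and -0.08 ± 0.08.

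Calcium sensing genes spanned a wide range of levels. Syt11, which encodes a synaptotagmin that does not bind calcium in the usual way, was the most abundant per length. It had 928, 1105, 1131, 1022 and 1163 CPM in restraint 1 to 5, against 1122, 1054, 1037, 1088 and 1062 CPM in control 1 to 5. Its control libraries varied little (coefficient of variation 3.09%), and the fold change was the nearest to none of the 43 genes. Syt1, the fast sensor, had 612 ± 102 CPM after restraint and 693 ± 75.8 CPM in controls (log2 -0.18 ± 0.11), and restraint 1 and 4, at 722 and 724 CPM, stood apart from the other restraint libraries at 523 to 559.6 CPM. Syt2, a fast sensor of hindbrain and spinal neurons, had 302 ± 55.8 and 274 ± 45.8 CPM (0.14 ± 0.13). The Syt2 value was 0.25 without restraint 1 (unadjusted p = 0.0421, adjusted p = 0.397 with edgeR) and 0.07 without restraint 3 or control 5. Syt4, a relative that like Syt11 lacks usual calcium binding, stood at 0.16 ± 0.08 (adjusted p = 0.471). The other members of the group did not pass either: Syt5 had 0.11 ± 0.12, Syt7, a slower high-affinity sensor, -0.12 ± 0.12, and Doc2b, a calcium sensor with the same kind of domains, -0.05 ± 0.12. Syt4 shares 14.5% of its exon bases with Gm26658, which held 186 counts in all.

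Both complexin genes were higher on average after restraint, and neither passed. Cplx2 (chromosome 13, 54519162 to 54531730) had 432, 553, 575, 493 and 461 CPM in restraint 1 to 5, against 432, 477, 389, 412 and 410.3 CPM in control 1 to 5. All 5 restraint libraries lay above the control median, but restraint 1 and 5 lay below control 2 (log2 0.25 ± 0.09; unadjusted p = 0.0123, adjusted p = 0.274 with edgeR). Cplx1 (chromosome 5, 108666420 to 108697890) had 1231, 1552, 1651, 1486 and 1715 CPM in restraint 1 to 5, against 1292, 1419.5, 1227, 1393 and 1297 CPM in control 1 to 5. Here 4 of 5 restraint libraries exceeded the highest control, and restraint 1 was near the lowest (log2 0.20 ± 0.09; unadjusted p = 0.0291, adjusted p = 0.352 with edgeR). Without restraint 1 the values were 0.30 for Cplx2 and 0.28 for Cplx1.

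The Munc13 genes had low levels and did not move one way. Unc13a, whose protein primes vesicles at most synapses of the forebrain, had 72.8, 44.2, 66.1, 81.0 and 63.2 CPM in restraint 1 to 5, against 60, 86.6, 53.0, 60.6 and 72.2 CPM in control 1 to 5. These overlapped fully (log2 -0.02 ± 0.15). Unc13c, known from the cerebellum, had 49.1, 49.6, 62.9, 59.5 and 44.3 CPM in restraint 1 to 5, against 40.2, 51.0, 43.6, 43.4 and 45.0 CPM in control 1 to 5. Restraint 3 and 4 were the highest of the 10 libraries (0.25 ± 0.10; unadjusted p = 0.0266, adjusted p = 0.341 with edgeR). Unc13b had 9.03, 4.85, 6.73, 7.58 and 6.83 CPM in restraint 1 to 5, against 10.8, 10.5, 7.02, 7.97 and 8.6 CPM in control 1 to 5. Control 1 and 2 were highest and restraint 2 lowest (-0.36 ± 0.17; unadjusted p = 0.0462, adjusted p = 0.416 with edgeR). Without restraint 2 the Unc13b value was -0.26, and without restraint 1 it was -0.46. Per length, Unc13a and Unc13c were close in controls (5.27 ± 1.04 and 5.07 ± 0.454 CPM per kilobase), and Unc13b had 0.395 ± 0.0719.

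Of the 5 active zone scaffold genes, 4 had a log2 fold change below 0, where 9294 of the 18440 genes tested did. Bsn, which encodes bassoon (chromosome 9, 107973221 to 108067583), had 73.8, 64.3, 54.1, 40.6 and 57.2 CPM in restraint 1 to 5, against 79.0, 91.3, 67.1, 61.3 and 61.5 CPM in control 1 to 5. The groups overlapped, with restraint 4 lowest and control 2 highest (-0.31 ± 0.14; unadjusted p = 0.0419, adjusted p = 0.402 with edgeR). The value was -0.20 without restraint 4, -0.21 without control 2 and -0.41 without restraint 1. Pclo, the gene of the related giant scaffold piccolo, had 82.5 ± 10.2 CPM after restraint and 93.1 ± 5.91 CPM in controls (-0.17 ± 0.09, unadjusted p = 0.0696, adjusted p = 0.479 with edgeR). Rims1, the most abundant of these genes per length, encodes a RIM protein that links vesicles to calcium channels. It had 80.8, 70.3, 91.9, 103 and 79.4 CPM in restraint 1 to 5, against 82.9, 107, 80.4, 83.8 and 83.2 CPM in control 1 to 5. The groups overlapped, with 1 high library in each (-0.04 ± 0.11). Rims2 (0.01 ± 0.10) and Erc2, which encodes the scaffold CAST (-0.09 ± 0.09), had values near 0.

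**Figure D3:**
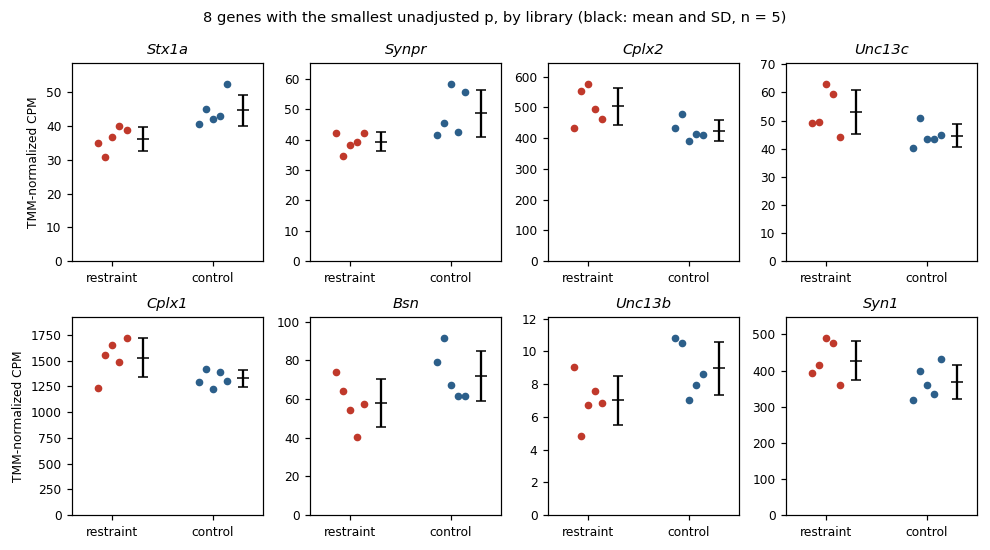
CPM in each library for the 8 genes with the smallest unadjusted p, restraint left and control right, with the mean and SD beside the points (n = 5 each) and axes from 0. Stx1a is the 1 gene whose groups are separate, at 30.7 to 40.0 CPM after restraint against 40.7 to 52.4 CPM in controls.

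Rab3 proteins are small GTPases on the vesicle that bind RIM. Rab3a had 866, 1106, 1310.4, 1096 and 1068 CPM in restraint 1 to 5, against 883, 1016, 1097, 1093 and 1192 CPM in control 1 to 5. Library 1 of each group was its lowest (log2 0.04 ± 0.10, and 0.12 without restraint 1). Rab3c had 936 ± 125 CPM after restraint and 882 ± 85.6 CPM in controls, and Rab3b 58.9 ± 10.8 and 54.8 ± 3.72 CPM, with log2 fold changes of 0.09 ± 0.09 and 0.11 ± 0.11. Restraint 3 had the highest level of all 3 genes, and without it the values were -0.04 for Rab3a, -0.02 for Rab3b and 0.00 for Rab3c.

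Synapsins coat vesicles and hold them in a reserve cluster. Syn1 (chromosome X, 20726750 to 20787243) had 393, 416, 489, 477 and 361 CPM in restraint 1 to 5, against 319, 399, 359, 335 and 431 CPM in control 1 to 5. All 5 restraint libraries were above the control median of 359 CPM, and control 5 was above 3 of them (log2 0.21 ± 0.10; unadjusted p = 0.049, adjusted p = 0.424 with edgeR). Syn2 was among the steadiest genes, with 439 ± 22.9 CPM after restraint and 456 ± 11 CPM in controls (-0.06 ± 0.07). Syn3 had 3.96 ± 0.963 and 3.47 ± 0.834 CPM (0.19, against 0.05 without restraint 1 and 0.35 without control 2), and 14.1% of its exon bases are shared with Timp3, which lies within it.

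The promoter windows of Stx1a, Cplx2, Cplx1 and Syn1 are shown as examples from the 8 genes with the smallest p, namely a SNARE, both complexins and a synapsin, and were picked after the values were seen. Each is the RefSeq window of 300 bases (250 before and 50 after the annotated start) in GRCm38.p6, an earlier build than that of the count table, written 5′ to 3′ on the strand of the gene. Capitals mark the letters TGACG, the short form of the CRE, which the factor CREB can bind, GGGCGG, the GC box, and TTCAGCACC, the left part of the RE1 element through which REST silences neuronal genes in other cells, each on either strand. The Stx1a window is chr5:135023232-135023531 (+ strand), that of Cplx2 chr13:54302306-54302605 (+ strand), that of Cplx1 chr5:108549978-108550277 (- strand) and that of Syn1 chrX:20920869-20921168 (- strand).
Stx1a: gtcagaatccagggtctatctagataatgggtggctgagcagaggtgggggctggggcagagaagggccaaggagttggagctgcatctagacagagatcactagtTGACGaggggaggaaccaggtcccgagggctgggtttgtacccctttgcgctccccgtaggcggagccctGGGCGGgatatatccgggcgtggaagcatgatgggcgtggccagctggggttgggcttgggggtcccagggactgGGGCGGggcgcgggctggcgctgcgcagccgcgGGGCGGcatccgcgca
Cplx2: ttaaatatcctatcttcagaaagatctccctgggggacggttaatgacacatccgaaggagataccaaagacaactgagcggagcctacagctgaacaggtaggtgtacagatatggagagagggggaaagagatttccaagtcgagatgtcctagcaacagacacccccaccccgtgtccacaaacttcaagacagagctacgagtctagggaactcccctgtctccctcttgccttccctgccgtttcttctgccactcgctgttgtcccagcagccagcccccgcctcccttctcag
Cplx1: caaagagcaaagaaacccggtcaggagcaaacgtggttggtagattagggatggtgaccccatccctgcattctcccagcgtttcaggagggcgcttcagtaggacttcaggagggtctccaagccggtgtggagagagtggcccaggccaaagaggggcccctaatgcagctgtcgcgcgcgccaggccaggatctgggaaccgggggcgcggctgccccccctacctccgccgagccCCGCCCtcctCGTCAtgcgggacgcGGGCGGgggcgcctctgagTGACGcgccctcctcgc
Syn1: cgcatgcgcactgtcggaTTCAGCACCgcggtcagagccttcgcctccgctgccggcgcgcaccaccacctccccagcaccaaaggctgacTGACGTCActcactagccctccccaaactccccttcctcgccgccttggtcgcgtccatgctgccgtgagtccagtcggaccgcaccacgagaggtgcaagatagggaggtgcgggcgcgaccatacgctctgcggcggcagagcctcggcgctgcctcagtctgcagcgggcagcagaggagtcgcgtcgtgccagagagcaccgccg

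The Stx1a window held 3 GC boxes and 1 short CRE, and the Cplx1 window held 2 of each. The Cplx2 window held none of the 3 motifs and had 9 CpG sites, against 19 in Stx1a, 24 in Cplx1 and 33 in Syn1. That window ends at 54302605 in GRCm38.p6, while the counted Cplx2 gene starts at 54519162 in GRCm39. Windows were matched by gene name and not converted between builds. Whether the Cplx2 window lies at the start of the counted gene was therefore not checked, and it may belong to a distant start. The Syn1 window held the RE1 part and the full CRE, TGACGTCA, in which 2 short forms overlap on opposite strands. Windows were found for 34 of the 43 genes, 44 windows in all, of which some overlap. They had a median of 19.5 CpG sites and 62.2% G and C, against 7 and 52.7% over 32851 promoter windows of all genes. A GC box was present in 68.2% of the members' windows and 35.7% of all windows, and TATAAA in 6.82% and 13.6%. The short CRE was in 25% and 20.8%, the full CRE in 6.82% (Napa, Sh3gl2 and Syn1) and 1.79%, and the RE1 part in 4.55% (Syn1 and Unc13a) and 0.371%. TTCNNNGAA, a letter pattern that STAT factors can bind, was in 4.55% (Sv2b and Syn2) and 8.3%. All were searched on both strands, and TGACGTCA and GGGCGG matches were counted whatever else they overlapped. These are matches of letters, from 16 motifs searched.

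SV2 proteins are vesicle glycoproteins, and SV2A is the binding site of the drug levetiracetam. Sv2a had 632, 660.5, 776, 719 and 689.5 CPM in restraint 1 to 5, against 660.1, 675, 534, 657 and 709 CPM in control 1 to 5. Control 3 was the lowest and restraint 3 the highest (log2 0.10 ± 0.08). Sv2c, the form found mainly in the basal ganglia and midbrain, had 119 ± 22.4 CPM after restraint and 111 ± 15.3 CPM in controls, and restraint 2 at 80.1 CPM was apart from the other restraint libraries at 122 to 138 CPM (0.10 ± 0.13, and 0.21 without restraint 2). Sv2b had 0.01 ± 0.08.

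Among the vesicle proteins with 4 membrane spans, Syp, the gene of synaptophysin, had 830.4, 815, 1053, 928 and 878 CPM in restraint 1 to 5, against 941, 955, 736, 938 and 911 CPM in control 1 to 5. The means were close, at 901 ± 95.9 and 896 ± 91.0 CPM (log2 0.01 ± 0.09). Syp shares 16.8% of its exon bases with Gm14703, the largest share of any member, and 14 of the 43 genes share some. Synpr, which encodes the related synaptoporin (chromosome 14, 8853423 to 9184983), had 42.3, 34.8, 38.4, 39.4 and 42.1 CPM in restraint 1 to 5, against 41.6, 45.6, 58.3, 42.4 and 55.7 CPM in control 1 to 5. All 5 restraint libraries were below the control median of 45.6 CPM, with control 3 and 5 well above the rest (-0.31 ± 0.11; unadjusted p = 0.00991, adjusted p = 0.258 with edgeR). Without control 3 the value was -0.22. Sypl, a relative that many tissues express, had -0.09 ± 0.10, and the synaptogyrin genes Syngr1 and Syngr3 -0.06 ± 0.10 and -0.05 ± 0.07.

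The genes of membrane retrieval overlapped between the groups. Dnm1, the GTPase that cuts vesicles from the membrane, had 906, 1027, 1085, 1175 and 899 CPM in restraint 1 to 5, against 767, 1142, 844, 789 and 951 CPM in control 1 to 5. All 5 restraint libraries lay above the control median of 844 CPM, yet control 2 exceeded 4 of them (log2 0.18 ± 0.11, adjusted p = 0.558 with edgeR). Without control 2 the value was 0.29 (unadjusted p = 0.0063, adjusted p = 0.216 with edgeR). Amph, the gene of amphiphysin, had 187 ± 9.12 CPM after restraint and 205 ± 14.1 CPM in controls (-0.13 ± 0.07, adjusted p = 0.51). Sh3gl2 (endophilin A1) had -0.06 ± 0.07, Synj1, the gene of the phosphatase synaptojanin, -0.07 ± 0.08, and Snph, which anchors mitochondria in axons, -0.04 ± 0.10.

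Ratios within a library compare related genes without regard to scaling. Of 14 pairs, 0 passed at an adjusted p under 0.05 (exact two-sided permutation test over libraries, adjusted over the 14 pairs). The smallest p that 5 against 5 can give is 0.00794. After adjustment a pair at that p could not pass alone, so the count of 0 does not show that no ratio differed. At an unadjusted p under 0.05 there was 1 pair. This was Unc13b over Unc13a, whose log2 ratio of read counts averaged -3.22 ± 0.15 in restraint libraries and -2.88 ± 0.24 in control libraries (SD over 5 each), a difference of -0.34 (exact permutation p = 0.0238, adjusted p = 0.333). The ratio was -3.01, -3.18, -3.29, -3.41 and -3.2 in restraint 1 to 5, against -2.47, -3.04, -2.91, -2.92 and -3.07 in control 1 to 5. Only restraint 1 reached into the control range. Syn2 over Syn1 was 0.05 ± 0.20 after restraint and 0.31 ± 0.15 in controls (exact permutation p = 0.0556, adjusted p = 0.389). The log2 ratio of Cplx2 over Cplx1 was -1.6 ± 0.17 after restraint and -1.65 ± 0.07 in controls, a difference of 0.04 (exact permutation p = 0.643, adjusted p = 0.861). Cplx2 had 0.147 ± 0.016 of the level of Cplx1 per length after restraint and 0.142 ± 0.00723 in controls. Vamp1 had 0.16 ± 0.0231 of the level of Vamp2 per length after restraint and 0.182 ± 0.0379 in controls, and Syt2 had 0.561 ± 0.172 of that of Syt1 after restraint and 0.434 ± 0.0698 in controls. The log2 difference of the Syt2/Syt1 ratio was 0.32 with all libraries, 0.50 without restraint 1 and 0.21 without restraint 5.

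**Figure D4:**
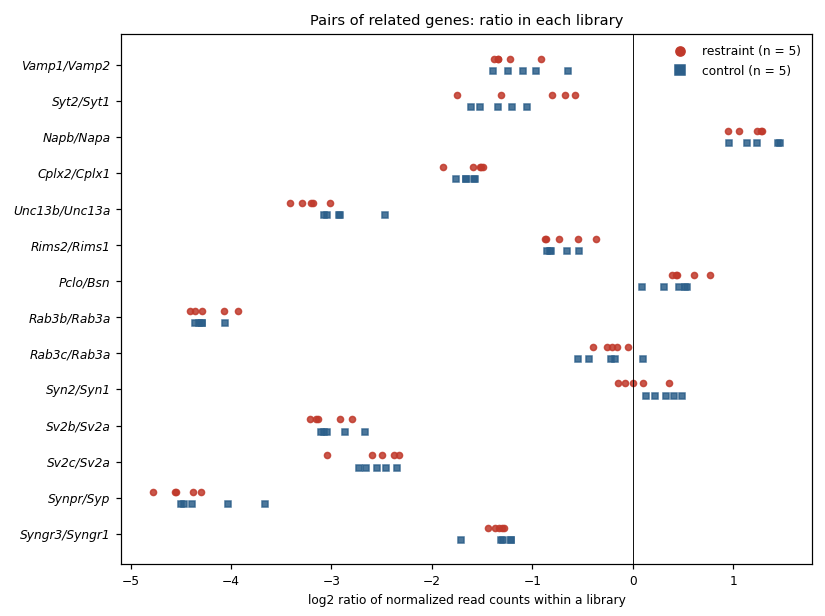
Log2 ratio of read counts of 14 pairs of related genes in each library (circles restraint, squares control, n = 5 each), first gene over second and not corrected for length. The groups overlap in every pair, and Unc13b/Unc13a, the pair with the smallest p, ran from -3.41 to -3.01 after restraint and from -3.07 to -2.47 in controls.

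The libraries differed among themselves within each group. The 43 genes together held 1.88 to 2.28% of the reads of genes tested after restraint and 1.96 to 2.17% in controls. Restraint 2 was the lowest of the 10 libraries for 15 of the 43 genes, and restraint 3 and control 2 were each the highest for 11. Restraint 4 and control 2 were each above the mean of the gene for 31 of the 43 genes, and restraint 1, which stood apart over all genes, for 16. The slope of log2 CPM on exon length, taken relative to the mean of the libraries over 8547 genes, also varied. It was 0.0672, -0.0674, 0.012, 0.0971 and -0.0455 log2 units per doubling of length in restraint 1 to 5, against -0.00265, 0.0657, -0.071, -0.0275 and -0.0281 in control 1 to 5. Its part in these library differences was not tested beyond a fit that removes each library's length trend, under which 0 of the 43 genes passed and 9 had an unadjusted p under 0.05.

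**Figure D5:**
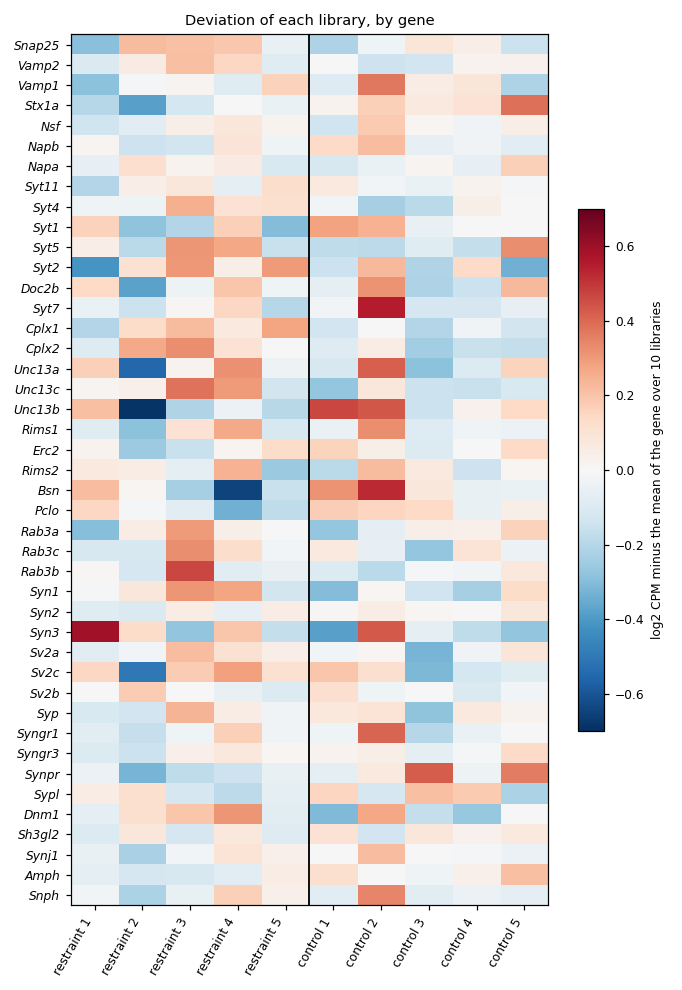
Log2 CPM of each gene in each library minus the mean of the gene over the 10 libraries (red above, blue below; restraint left of the line, control right). Control 2 and restraint 3 have the most genes at their highest value (11 each), and restraint 2 the most at their lowest (15).

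A wider list of 74 other genes of vesicle filling, docking and recycling was read from the same test. In it 0 passed, 1 was higher and 5 were lower at an unadjusted p under 0.05 (8.11%, against the background of 11.7%), and the median log2 fold change was 0.00. The gene with the smallest p was Atp6v0c, a membrane subunit of the proton pump that energizes vesicle filling, with 507 ± 85.8 CPM in restraint libraries and 702 ± 44.1 CPM in control libraries (SD, n = 5 each). The log2 fold change was -0.47 ± 0.10 (SE, adjusted p = 0.08 with edgeR). It passed with DESeq2 (adjusted p = 0.00152). Its level is uncertain: 2 pseudogenes are named after it and multi-mapping reads were not counted. Of the other pump subunits in the list, Atp6v1a had -0.16 ± 0.07, Atp6v1b2 -0.02 ± 0.10 and Atp6v0a1, the 1 higher gene of the count, 0.23 ± 0.11 (unadjusted p = 0.0499, adjusted p = 0.427 with edgeR). The vesicle membrane gene Scamp5 had -0.22 ± 0.07, the secretory GTPase gene Rab27b -0.26 ± 0.11 and the endosomal SNARE gene Vamp4 -0.15 ± 0.07, with adjusted p-values of 0.25 to 0.418 (edgeR).

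Markers of the cell types that the RNA could come from were read beside these genes. The 12 dopamine neuron markers had a summed level of 2187 to 3033 CPM after restraint and 1964 to 2689 CPM in controls, with 10 of 12 above 0 on the log2 scale and a median of 0.26. The 10 GABA neuron markers summed to 1873 to 2179 and 1625 to 1972 CPM (median 0.05), and the 9 glutamate neuron markers to 539 to 737 and 589 to 727 CPM (median 0.03). The 12 astrocyte markers summed to 7204 to 8351 CPM after restraint and 6385 to 7491 CPM in controls (median 0.08), and the 10 oligodendrocyte markers to 1547 to 2144 and 1617 to 1974 CPM (median 0.09). The 10 microglia markers held 25.3 to 36.1 and 26.4 to 40.8 CPM (median -0.06), and the 10 vascular markers 16.3 to 25.5 and 13.7 to 19.7 CPM (median 0.24, 9 of 10 above 0). With edgeR 0 genes of any of these 7 lists passed. The unadjusted p was under 0.05 for 6 of 12 dopamine neuron markers, 3 of 10 oligodendrocyte, 3 of 10 vascular, 2 of 10 GABA neuron, 2 of 12 astrocyte, 1 of 9 glutamate neuron and 0 of 10 microglia markers, against 11.7% of all genes tested. No marker was at 0 in all libraries, and the part of cell makeup in the values of the 43 genes was not tested.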

How the data were processed

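Libraries of ribosome-bound RNA, 5 after restraint and 5 controls, were compared, with groups and replicate numbers from the labels. The deposited table holds whole-number read counts per gene, made with featureCounts 2.0.3 on exons of GENCODE M30, per the file headers. Its command, per the file headers, sets paired-end input without options for strand, read pairs or multi-mapping reads. Both mates of a pair therefore count, either strand counts, and multi-mapping reads do not. FastQC, Trimmomatic and STAR were used, per the submitters' processing notes, which name mm10 although GENCODE M30 annotates GRCm39. Coordinates are the table's. Of 56691 genes, 52073 were given symbols by identifier from GENCODE M21.

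Genes were filtered with filterByExpr (count minimum 10, total minimum 15) and tested in edgeR 4.0.16 (TMM, glmQLFit, glmQLFTest, group only, R 4.3.3) with Benjamini-Hochberg adjustment over the 18440 kept, at a threshold of 0.05. Standard errors came from the fold change and the F statistic. Ratios used a prior count of 2. The tests were tested on simulated data. Alternatives were RLE and upper quartile scaling, no filter, DESeq2 1.42.0, limma-voom (limma 3.58.1), robust dispersion, a replicate block, removal of each library's length trend (lowess, span 0.3) and leaving out each library. The members, the wider list and the marker lists were chosen with earlier results of these data known. Values in every library are given for the 8 genes with the smallest p, the most abundant gene per length of each of 11 role groups and the genes of any ratio at an exact p under 0.05, and the 5 genes of the wider list with the smallest p are named. Promoter sequences are from RefSeq. Intervals and tests cover the spread between libraries, and 1 gene of the wider list was not analysed here.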

Additional observations from a re-analysis of the deposited data

Results flagged for a closer look

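In each group of 5 libraries, a gene's highest or lowest library was examined for a gap to its neighbour that takes more than 0.71 of the whole range (Dixon's 95% value). Over the 86 groups of 43 genes, 10 were marked, and chance marks about 1 in 20 groups. Control 2 was the highest of its group in 5 of them, with 199.9 CPM for Syt7 (134 CPM in the next control), 107 for Rims1 (next 83.8), 965 for Syngr1 (next 724), 385 for Synj1 (next 332) and 236 for Snph (next 181). Control 2 had a length slope of 0.0657, against -0.071 to -0.00265 in the other controls, whose part in these values was not tested. Control 5 was highest for Syt5 at 135 CPM (next 101), and control 3 lowest for Syp at 736 CPM (next 911). After restraint, restraint 3 was highest for Rab3b at 77.9 CPM (next 56.8), restraint 5 highest for Amph at 203 CPM (next 187), and restraint 2 lowest for Sv2c at 80.1 CPM (next 122).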

How the results depend on the processing

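The count of 0 passing genes of the 43 was the same under all 8 other settings and with any library left out. The count at an unadjusted p under 0.05 was 8 in the main test, with DESeq2 and with limma-voom, 7 with a replicate block and 2 to 13 with a library left out: 13 without restraint 1, 5 without restraint 2 or 4, 2 without restraint 3 and 4 without control 1. The median log2 fold change of the 43, -0.02, was -0.05 to 0.04 with a library left out. Over all genes, 4 passed in the main test, 302 with no filter, 331 with DESeq2, 78 with the length trend removed, 0 with robust dispersion and 0 to 92 with a library left out (92 without restraint 5). In the wider list, 0 passed in the main test and 1, Atp6v0c, with no filter, with DESeq2 or with the length trend removed, and 0 to 1 with a library left out (1 without restraint 5). The cause of these shifts was not tested. With the replicate number as a block, 0 of all genes passed. Deviations of same-numbered libraries had correlations of -0.164 to 0.027, and 0 of 5 restraint libraries matched best with their own number. These values show no pairing by number. They do not settle whether same-numbered libraries were handled together, which the labels do not say. Of the 14 ratios 0 passed under any setting, though in none of them could a single ratio pass alone after adjustment. With the block, Unc13b/Unc13a had an exact p of 0.0625, the smallest that 5 pairs allow, so no ratio could pass there. Of the 43 genes, 1 changed direction under the other 8 settings (Rims2, -0.00 with the length trend removed), and 15 did when a library was left out, with log2 fold changes of -0.16 to 0.01 for Vamp1, -0.02 to 0.05 for Napa, -0.06 to 0.02 for Nsf, -0.16 to 0.04 for Syt7, -0.04 to 0.05 for Syt11, -0.10 to 0.04 for Doc2b, -0.11 to 0.10 for Unc13a, -0.11 to 0.05 for Rims1, -0.04 to 0.08 for Rims2, -0.04 to 0.12 for Rab3a, -0.02 to 0.14 for Rab3b, -0.04 to 0.05 for Sv2b, -0.06 to 0.04 for Syp, -0.11 to 0.05 for Syngr1 and -0.08 to 0.06 for Snph. Ratio differences did so for Rims2/Rims1 (-0.02 to 0.11), Rab3b/Rab3a (-0.02 to 0.10), Rab3c/Rab3a (-0.03 to 0.13), Sv2c/Sv2a (-0.08 to 0.10) and Syngr3/Syngr1 (-0.09 to 0.04). Syn3 and Unc13b had the fewest reads, with 165 and 322 in their smallest libraries, and the largest standard errors, 0.20 and 0.17. Unc13a, with 2933 reads in its smallest library, had 0.15. The part of depth in these errors was not tested.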
